A study of Komagataella phaffii with 102 samples.

Results

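Among the 5116 genes measured in the yeast Komagataella phaffii, 45 lost expression between 24 h and 48 h of glycerol culture and stood near their 24 h level again when the second day was spent in methanol instead. These 45 members were chosen by their measured values in 10 of the 11 strains, so the dip itself is a description and not a test. The values were library-scaled counts (CPM, the count of a gene as a share of its library's sum, scaled to 1000000) on the log2(CPM + 1) scale, averaged over libraries within a strain and then over strains. A member was at least 1 log2 unit lower at 48 h glycerol than at 24 h glycerol and at least 1 lower than in methanol, its methanol and 24 h means differed by less than 1, and it lay at least 50 kb from the ends of its contig. The strain Y-48123 took no part in the choice, so its libraries test the pattern apart from it. By the study's variant calls Y-48123 is nearly identical to Y-11430, which did take part, and it has 1 library at 48 h glycerol. The test therefore says little about other genotypes.

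K. phaffii, also called Pichia pastoris, is a methylotrophic yeast that can live on methanol as its only carbon source and is widely used to secrete recombinant proteins. Cells are usually grown on glycerol, which represses the genes of methanol use, and are then moved to methanol, which switches those genes on and is oxidised in peroxisomes. A culture that stays on one batch of carbon source passes from growth toward stationary phase, and many yeast genes change level along that path whatever the carbon source.

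The 11 strains were nontransgenic and were grown as bulk cultures in 24-well plates. All cultures began with 24 h in buffered complex medium with 4% glycerol. They were collected then (24 h glycerol, 36 libraries), or pelleted and moved for a further 24 h to fresh medium of the same kind (48 h glycerol, 28 libraries) or to medium with 1.5% methanol (methanol, 38 libraries). Y-11430 is the wild-type strain whose assembly carries the gene models, and in the study's variant calls Y-7556, YB-4290, Y-48123 and Y-12729 were nearly identical to it. GS115 is a commercial histidine auxotroph. X-33 and Y-48124 share its mutations, but carry a different change at the same position of the histidine gene. The study found that both grew slowly without histidine. Both also carry a change in RCR2 that GS115 lacks, and X-33 has further ones, among them a change in RVB1. YB-4289, YB-4290, YB-378 and Y-7556 formed a group that the study named Cluster 2 from expression in these same libraries, and Y-17741 stood by itself. By sequence YB-4289, YB-378 and Y-17741 differed most from Y-11430, so Cluster 2 holds near-identical and divergent strains. All strains of Cluster 2 and Y-17741 carry a longer form of the transcription factor Rsf2p. Reads of every strain were counted on the Y-11430 gene models. In bulk RNA, a gene read in fewer cells and a gene with less RNA per cell cannot be told apart.

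Library totals ran from 70901 to 16336681 counts with a median of 3810597, and 6 libraries held under 1000000. The shallowest was methanol library C of X-33, in which 3 counts make 42.3 CPM and 5 members had no count. Methanol libraries varied most: by the mean absolute log2 difference over all genes, 15 of 38 were nearest to the other libraries of their own strain, against 25 of 36 at 24 h glycerol and 18 of 27 at 48 h glycerol. Methanol libraries Y-12729 B, Y-48123 C, Y-48124 C and X-33 C and the 48 h glycerol library Y-48124 D stood apart from their groups. They are the 5 left out together below. By the same measure Y-48124 24 h B, at 0.72, and Y-48124 48 h A, at 0.57, lay further from their groups than Y-48124 48 h D, at 0.52. These were kept in that check, although Y-48124 is part of the reference in the strain comparisons. Methanol libraries A and B of X-33 were also nearer to a strain of Cluster 2 than to the rest of X-33. In Cluster 2, libraries of the same letter deviated together across strains: their correlation over genes was over 0.1 in 18 of 18 pairs at 24 h glycerol and 15 of 15 in methanol, with medians of 0.59 and 0.49. The members took 0.531 to 0.657% of the counts in its 4 A libraries at 24 h and 0.689 to 0.776% in the others, and 0.471 to 0.598% against 0.639 to 0.824% in methanol. What the letters mark is not given in the sources used here.

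By the values that chose them, the members fell by a median of 1.35 log2 units from 24 h to 48 h glycerol, with a range of 1.01 to 2.85, while the median over all genes was 0.12. They were a median of 1.304 higher in methanol than at 48 h glycerol (1.00 to 3.31, with -0.19 over all genes). With the TMM scaling of edgeR, which brings the median shift of all genes to 0.01 and 0.00, the medians over the members were 1.23 and 1.50. In methanol 20 members stood above their 24 h mean and 25 below it, with a median difference of -0.02. Of the 4961 genes away from contig ends, 781 fell by 1 or more and 437 rose by 1 or more in methanol, and the 45 members met both and the limit on their methanol level. One more gene, GQ67_04284, met the 3 conditions on expression but lay near a contig end.

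Together the members took a median of 0.522% of the counts at 24 h, 0.161% at 48 h and 0.529% in methanol. Per length, in TPM (counts scaled by gene length and library), a member's mean over libraries of the 10 strains had a median of 31.4 at 24 h, 11.2 at 48 h and 32.7 in methanol. The corresponding medians over all genes were 44.2, 42.6 and 38.6. The most abundant member at 24 h glycerol was GQ67_02564, with 354.5 TPM. GQ67_04013 was the least abundant, with 4.15 TPM.

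**Figure D1:**
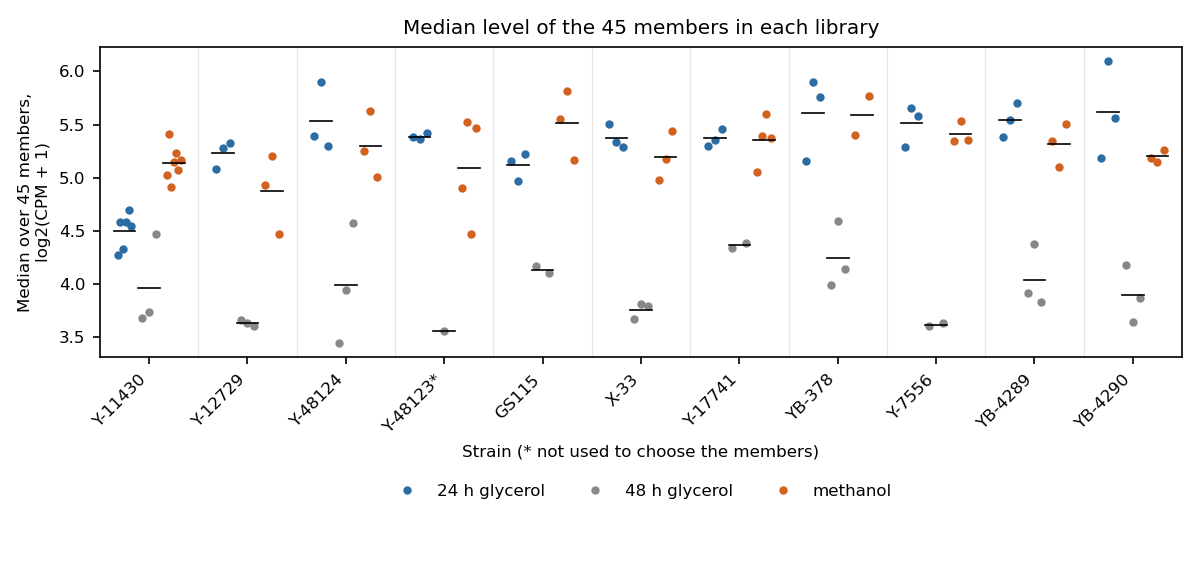
Median log2(CPM + 1) over the 45 members (vertical axis) in each library, by strain and culture. Points are libraries and short lines are group means. The 48 h glycerol libraries sit at 3.45 to 4.60, the 24 h glycerol libraries at 4.27 to 6.10 and the methanol libraries at 4.47 to 5.81, and the 6 lowest 24 h libraries are those of Y-11430.

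The plot of library medians shows the shape of the pattern in single libraries. The median over the members ran from 4.27 to 6.10 at 24 h glycerol (median of libraries 5.33), from 3.45 to 4.60 at 48 h glycerol (3.85) and from 4.47 to 5.81 in methanol (5.24). The overlap at 24 h glycerol came from Y-11430 alone, whose 6 libraries held 4.27 to 4.70, while every other 24 h library stood at 4.97 or more. The share of TPM outside the listed genes, a measure of how much of a library the tables leave out, was also higher at 48 h glycerol and in methanol, with library medians of 16.0%, 25.1% and 26.5% in the order of the cultures, and its part in the pattern was not tested.

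The files give identifiers but no gene names for the members, and 0 identifiers matched the 5040 genes of the RefSeq gene table, so functions are not given. Only GQ67_02041 is named by the study, as a cell wall gene with a potentially functional change in GS115. The members were spread over the 4 chromosomes, with 14 on chromosome 1, 12 on chromosome 2, 11 on chromosome 3 and 8 on chromosome 4, which is between 0.791% and 0.924% of the genes on each. All but GQ67_04719 and GQ67_04702 had 1 exon, and those had 2 (4.65% of all genes had more than 1). The coding length had a median of 981 bases in the members and 1221 in all genes.

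The neighbours among the members made up 10 genes, which sat in 5 pairs of direct neighbours, among 5105 adjacent pairs in all. The pairs GQ67_00262 and GQ67_00263, GQ67_01122 and GQ67_01123, GQ67_04013 and GQ67_04014, and GQ67_04775 and GQ67_04776 lay in tandem with 125, 181, 126 and 217 bases between their annotated exons. GQ67_04520 and GQ67_04521 were divergent, with 454 bases between them. Whether reads were counted by strand is not given in the sources used here, so reads at the edges of close neighbours may be split wrongly between them.

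GQ67_03110, on the plus strand of chromosome 3 from base 220372 to 222192 of the authors' Y-11430 assembly, had the deepest dip. Its 24 h glycerol libraries held 283 to 951 CPM (median 557), the 48 h glycerol libraries 26.2 to 415 (median 64.3) and the methanol libraries 35.9 to 2915 (median 959.6). The upper end at 48 h came from GS115, with 412 and 415 CPM against 291, 283 and 401 at 24 h. In GS115 alone, then, this gene did not drop. In every other strain the 48 h libraries stayed below all 24 h libraries of the strain. In methanol the strains of Cluster 2 held 929 to 2915 CPM and Y-17741 held 1769, 1981, 719 and 1844, above the 24 h libraries of their own strains. Y-11430 split within its methanol group: libraries A, C and F held 131, 67.5 and 105 CPM, and B, D, E and G held 671, 679.6, 511 and 480.0. Methanol libraries Y-12729 B, Y-48123 C and Y-48124 C held 1881, 2240.3 and 1737 CPM while the others of those strains held 35.9 to 213, so 1 library a strain was high in these 3 strains.

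GQ67_04719 (chromosome 4, 788032 to 789514, plus strand) followed the rule in a more even way at 48 h. It held 78.2 to 482 CPM at 24 h glycerol (median 337), 27.3 to 149.9 at 48 h (median 51.3) and 65.2 to 926 in methanol (median 206). The return differed by strain. Cluster 2 held 438 to 926 CPM in methanol and 297 to 452 at 24 h, and within each of its 4 strains the methanol libraries were above all 24 h libraries. Y-12729 A and C, Y-48123 A, B and D, and Y-48124 A and B held 73.1 to 127 CPM in methanol, above their 48 h libraries other than Y-48124 D but well below their 24 h libraries of 264 to 413. Y-11430 was low throughout, at 78.2 to 119 CPM, then 48.1 to 59.3, then 65.2 to 114.

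GQ67_00263 (chromosome 2, 443250 to 445497, plus strand) had 20.4 to 124 CPM at 24 h glycerol, 1.25 to 141 at 48 h and 24.5 to 464 in methanol, with medians of 56.2, 8.66 and 104. Cluster 2, X-33 and Y-17741 fell to between 1.25 and 12.8 CPM at 48 h. GS115 held 105 and 141 CPM at 48 h, within or above its 24 h values of 119.95, 99.0 and 124, and 134, 128 and 131 in methanol. Y-11430 also showed no drop, with 20.4 to 32.7 CPM at 24 h and 35.3, 22.5 and 72.9 at 48 h, but rose to between 115.5 and 259 in methanol. The neighbour GQ67_00262 showed the same exception in GS115, with 27.0, 19.1 and 49.9 CPM at 24 h and 48.5 and 49.8 at 48 h.

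The other members with the largest dips were GQ67_03037, GQ67_02558 and GQ67_04014. GQ67_03037 was scarce, with 0 to 9.41 CPM at 48 h glycerol (median 1.12) against medians of 8.68 at 24 h and 9.34 in methanol, and 3 of the 28 libraries at 48 h had no count. Its highest 48 h value came from Y-48124 D, and the next was 3.99. GQ67_02558 held 8.91 to 50.5 CPM at 24 h, 1.40 to 24.9 at 48 h and 14.1 to 66.6 in methanol, and within each strain its 48 h libraries lay below all 24 h libraries. GQ67_04014 held 3.56 to 23.0 CPM at 24 h, 0.715 to 8.89 at 48 h and 0 to 23.8 in methanol, where the 0 is X-33 C.

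Among the members with the highest TPM at 24 h glycerol, GQ67_02564 had a median of 2107 CPM at 24 h, 552 at 48 h and 1567 in methanol. Its 48 h libraries (360.1 to 953, and 1391.6 and 1017 in Y-48124 D and YB-4290 B) lay below the 24 h libraries of the same strain, except that Y-48124 D stood above Y-48124 B at 829. In methanol it was low in X-33 A and B (513 and 517) and high in C (2271). GQ67_01385 held 44.8 to 317 CPM at 24 h, 19.99 to 145 at 48 h and 83.6 to 395 in methanol. In Cluster 2 the 24 h libraries labelled A held 61.9 to 106 CPM and the B and C libraries 225 to 317, and in each of those strains library A was below at least 1 library at 48 h. GQ67_02858 held 71.2 to 357 CPM at 24 h, 44.97 to 143 at 48 h and 73.1 to 252 in methanol, and its 24 h and 48 h values overlapped in X-33 (98.4, 72.1 and 71.2 against 93.1, 77.4 and 67.5).

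GQ67_02041, the cell wall gene, held 52.2 to 358 CPM at 24 h glycerol (median 138), 33.1 to 88.5 at 48 h (median 43.5) and 35.4 to 1228 in methanol (median 84.6). GS115 and Y-48124, which share the change in this gene, were among the higher strains at 24 h with 291, 222 and 358 CPM and 255, 324 and 182 CPM. X-33, which shares it too, was low at 76.1, 60.6 and 55.5. Y-11430, which lacks the change, was also high: its 24 h mean of log2(CPM + 1) was 7.73, against 8.16 in GS115 and 7.95 in Y-48124. Y-17741 hardly moved in glycerol (57.0, 68.5 and 52.2 CPM, then 49.3 and 48.7) and rose in methanol to 206, 1073, 105 and 1228, so the libraries of that group lay far apart.

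**Figure D2:**
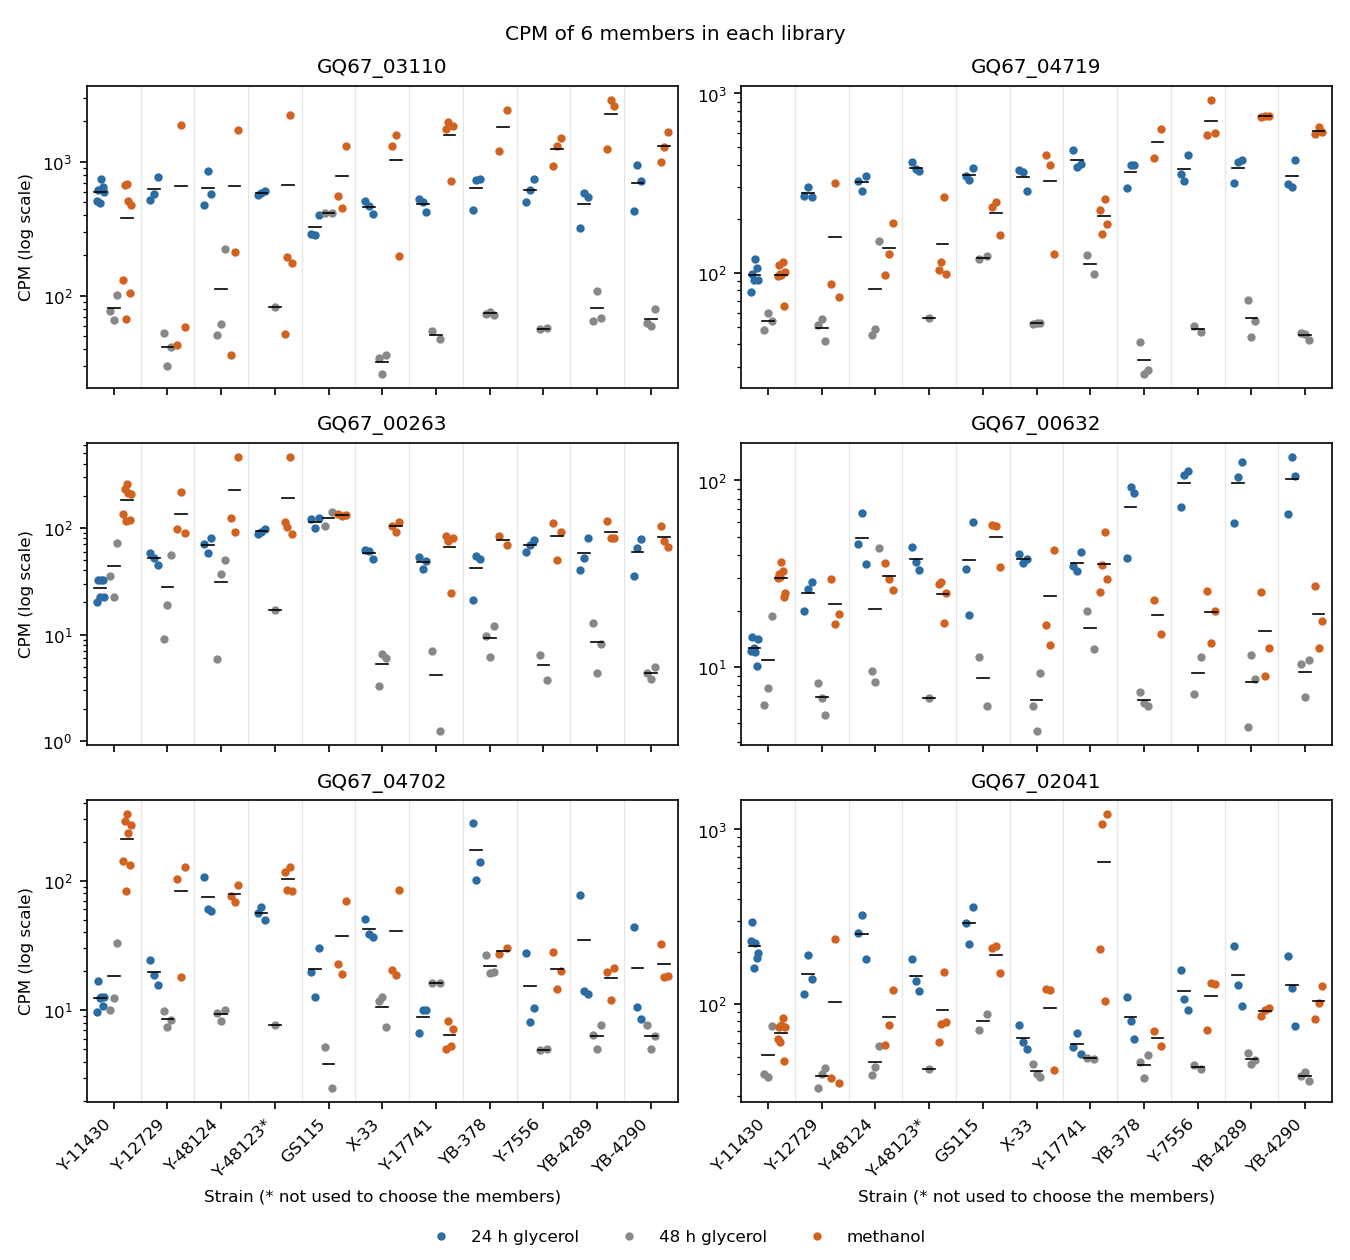
CPM (vertical axes, log scale) of 6 members in each library, by strain and culture. Points are libraries and short lines are group means. GQ67_03110 and GQ67_00263 show no gap between 24 h and 48 h glycerol in GS115, GQ67_00632 reaches 134 CPM at 24 h in Cluster 2, and GQ67_04702 stays at 4.9996 to 16.3 CPM in Y-17741.

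The plot of 6 members by library shows that the same mean pattern covers different strain profiles. Counting a strain where both differences of strain means reached 1, a member met both in a median of 5 of the 10 strains that chose it. Of these, 7 members met both in 8 or more strains (GQ67_02558, GQ67_03110 and GQ67_03282 in 9, and GQ67_00263, GQ67_01434, GQ67_04014 and GQ67_04776 in 8), 32 in 5 or more and 0 in all 10. GQ67_01123 met both in 1 strain only. Of the 450 pairs of a member and a strain, the 24 h mean was not above the 48 h mean in 11, of which 6 were in GS115 and 3 in Y-11430, and the methanol mean was not above it in 14, of which 7 were in Y-17741.

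The fall varied least over the 10 strains in GQ67_01649, with a range of 0.97 log2 units, and most in GQ67_03110, with 4.25. The rise in methanol varied least in GQ67_02122, with a range of 0.68, and most in GQ67_00970, with 6.07, from -1.53 in GS115 to 4.54 in Y-17741. The members' median range was 1.96 for the fall and 1.88 for the rise, which is larger than the median dip.

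**Figure D3:**
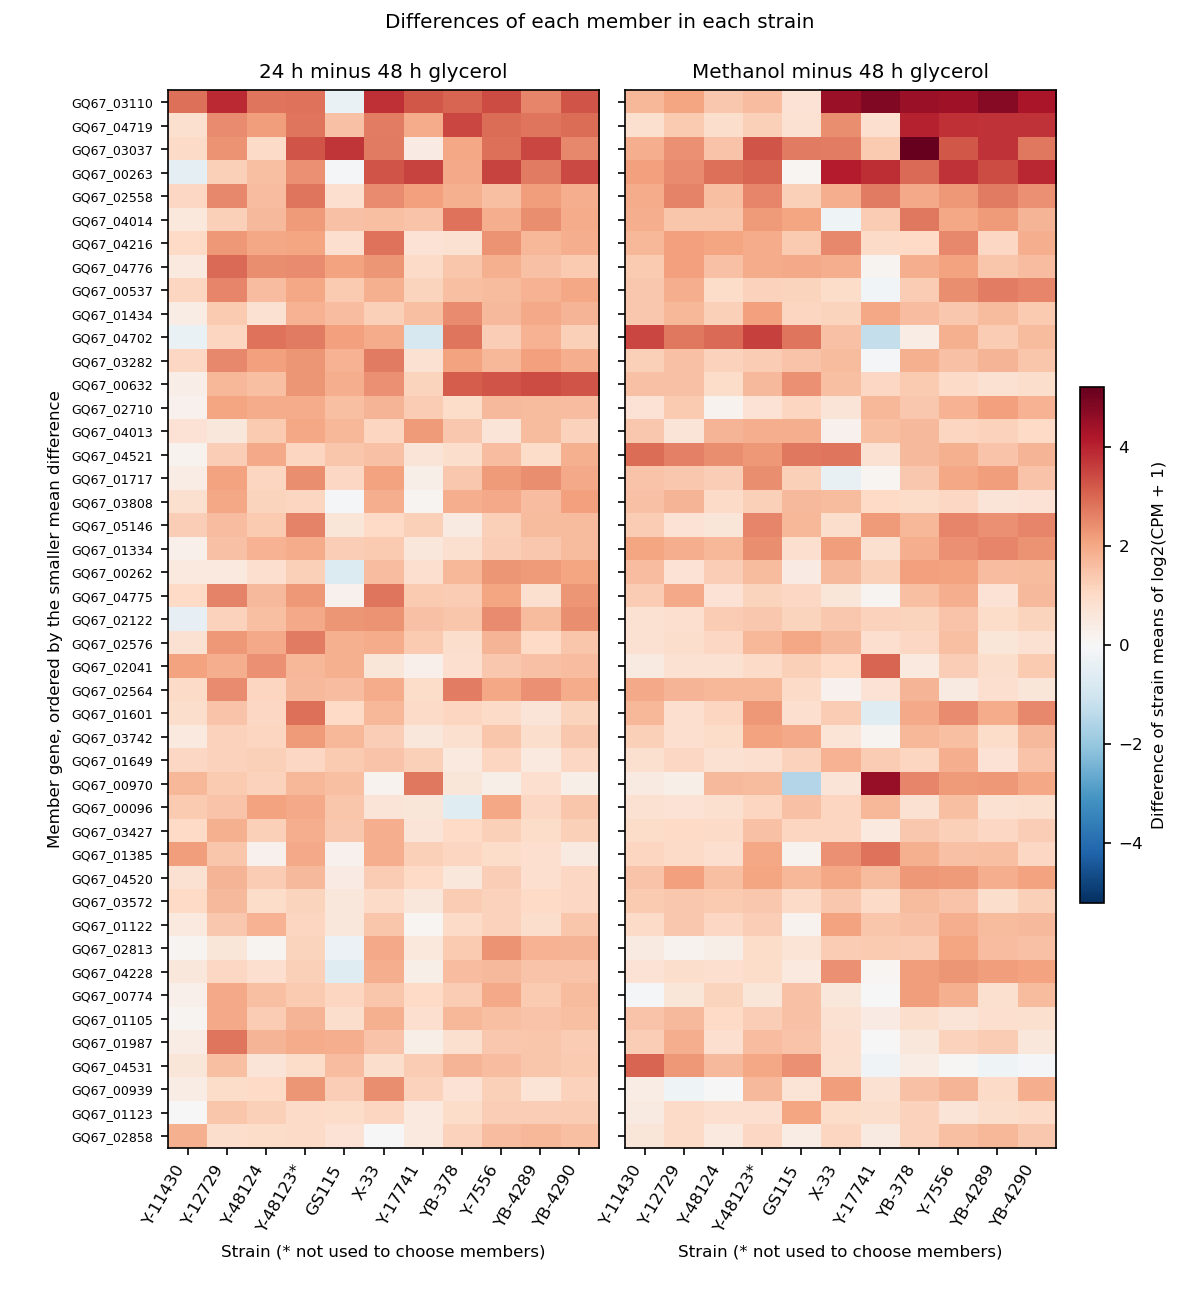
Difference of strain means of log2(CPM + 1) for the 45 members (rows) in the 11 strains (columns), for 24 h minus 48 h glycerol on the left and methanol minus 48 h glycerol on the right. Red is higher than at 48 h glycerol and blue is lower. Most cells are red, and the blue cells on the left lie in GS115, Y-11430, Y-17741 and YB-378.

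By strain, as the colour plot of differences shows, the median fall over the members was smallest in Y-11430, at 0.75, where 15 members fell by 1 or more (5.36% of all genes did). It was 0.98 in Y-17741 (22 members, 12.5% of all genes) and 1.33 to 1.86 in the other 8 strains, with 28 to 43 members and 15.2% to 25.0% of all genes. The median rise in methanol was 0.98 in Y-17741 and 1.13 to 1.85 elsewhere, with Y-7556 highest. Y-7556 met both thresholds for 37 of the 45 members (2.54% of all genes), YB-4290 for 34 (1.68%) and Y-12729 for 30 (2.38%), against 14 in Y-17741 (2.31%) and 9 in Y-11430 (1.27%). These values entered the choice of the members and are given without a test.

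Y-11430 also stood low at 24 h glycerol. Its 24 h mean was below the mean of the other 9 strains of the rule for 40 of the 45 members, with a median difference of -0.96 log2 units, while the median over all genes was -0.02. For 16 members all 6 of its 24 h libraries were below all 30 libraries of the other strains (7.62% of all genes), and 0 members had all 6 above (9.11% of all genes). The 16 included GQ67_04719, GQ67_02558, GQ67_04014, GQ67_00632 and both genes of the pair GQ67_04520 and GQ67_04521. The 24 h means of Y-11430 also entered the rule, so this comparison has no test.

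Y-48123 asked whether the pattern held in a strain that had no part in choosing it. On the scale of the rule, 45 of its 45 members were lower at 48 h glycerol than at 24 h glycerol and 45 were higher in methanol than at 48 h, with medians of 1.96 and 1.65. The fall reached 1 for 43 members and the rise for 39, and 37 reached both (4.40% of all genes did). For 39 members the 48 h library was below all 3 libraries at 24 h and all 4 in methanol, a gap that 15.9% of all genes showed. GQ67_03110 held 569, 586 and 602 CPM at 24 h, 82.7 at 48 h and 51.9, 194, 2240.3 and 176 in methanol, so methanol library A was below the 48 h library. GQ67_02558 held 32.6, 26.9 and 34.1 CPM, then 3.70, then 20.5, 26.9, 36.6 and 24.7, so its 48 h library was below all others, while its 24 h and methanol libraries overlapped.

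In the edgeR quasi-likelihood test, 30 members were called lower at 48 h than at 24 h glycerol in Y-48123 (15.1% of 5087 tested genes) and 40 were called higher in methanol than at 48 h (13.2%). A call needed an adjusted p under 0.05 over all tested genes together with a change of 1 log2 unit or more in either direction. Both calls were made for 28 members and for 3.2% of all genes. The median fitted change was -1.90 for the fall and 2.15 for the rise. Of the other 736 genes that fell by the rule in the 10 strains, 549 (74.6%) were called lower at 48 h in Y-48123, but 78 (10.6%) were called higher in methanol. These 736 had missed the rule on their methanol values, so their low share of methanol calls was in part set by the choice. The members' own counts were 30 of 45 for the fall and 40 of 45 for the rise. Y-48123 has 1 library at 48 h glycerol, which both comparisons share and whose spread is taken from the other groups. Without methanol library C, which stood apart, 36 members were called higher in methanol. The labels do not say that libraries came from separate cultures, so p-values measure only the spread between these libraries.

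GQ67_02558 fell by 2.87 on the log2 scale in Y-48123 (SE 0.45, edgeR adjusted p = 5.35e-07) and rose by 2.98 in methanol (SE 0.45, adjusted p = 2.19e-07). GQ67_01601 had the smallest adjusted p for the fall, with a change of -2.81 (SE 0.44, 4.63e-07), and GQ67_04520 for the rise, with 2.19 (SE 0.30, 1.38e-08). GQ67_03110 missed both calls despite fitted changes of -2.62 (SE 1.38, adjusted p = 0.124) and 3.43 (SE 1.44, 0.0595). GQ67_02041 missed both as well, with an adjusted p of 0.076 for a change of -1.57 (SE 0.725) and 0.152 for the rise.

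GQ67_03037 and GQ67_04013 had no count in the 48 h library of Y-48123, whose floor of 3 counts is 0.853 CPM. Against that floor, GQ67_03037 was at least 10.1-fold higher at 24 h glycerol (mean of 8.64 CPM) and at least 10.3-fold higher in methanol (8.75 CPM). GQ67_04013 was at least 3.65-fold higher at 24 h and at least 3.60-fold higher in methanol. With those 2 members at their bounds, the median change was -1.89 for the fall and 1.91 for the rise.

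**Figure D4:**
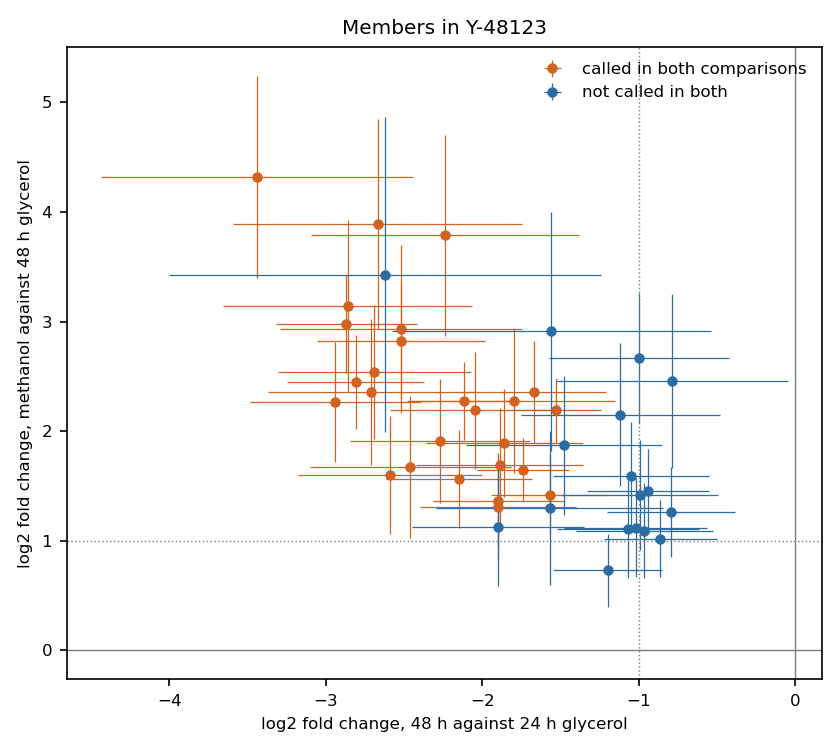
Fitted log2 fold changes of 43 members in Y-48123, for 48 h against 24 h glycerol (horizontal axis) and methanol against 48 h glycerol (vertical axis), with bars of 1 SE. GQ67_03037 and GQ67_04013, which had no count at 48 h, are not drawn. All points lie to the left of 0 and above 0, and dotted lines mark a change of 1.

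Further tests asked whether the size of the fall or of the return differed between strains. The reference was the mean of Y-12729 and Y-48124, since Y-48123 has 1 library at 48 h. A positive difference in fall means that the strain fell less than the reference. A positive difference in recovery means that its methanol level stood further above its 48 h glycerol level. Rise and recovery compare separate second-day cultures, and no methanol culture passed through 48 h of glycerol. These contrasts weigh strains against each other and are not the mean that chose the members. They use libraries from that choice, however, and a strain with extreme values may itself have brought a gene onto the list. Their p-values are therefore not independent of the choice. The fall and the recovery of a strain share the 48 h libraries, and all strains share the reference libraries. Over the 10 differences, 37 of the 45 members were called at least once (60.1% of all tested genes were) and 8 never, and GQ67_02813 was called most often, in 5.

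**Figure D5:**
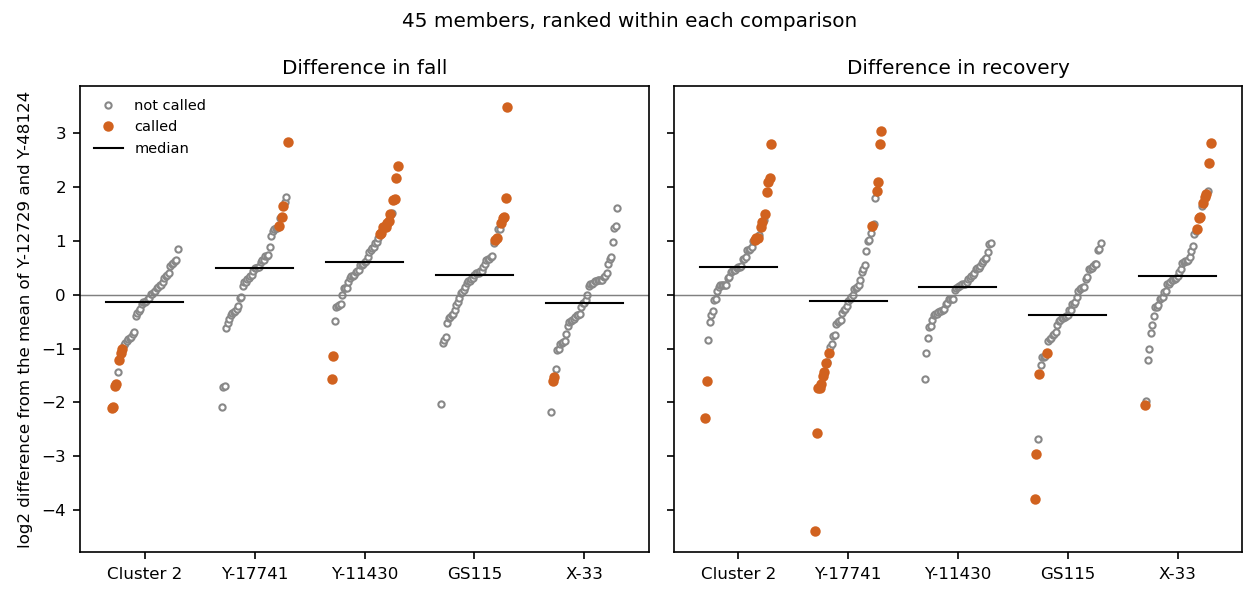
Fitted log2 differences from the mean of Y-12729 and Y-48124 (vertical axis) for the 45 members, ranked within each strain or group, in the fall from 24 h to 48 h glycerol on the left and the recovery in methanol on the right. Filled points were called and lines are medians. Y-11430 has 12 called members above 0 on the left and 0 called members on the right.

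In Cluster 2, 7 members fell further than in the reference strains (edgeR, called lower in 8.91% of all tested genes). GQ67_00632 had the smallest adjusted p: its difference was -2.08 (SE 0.33, adjusted p = 5.93e-07). The 24 h libraries of Cluster 2 held 38.2 to 134 CPM of GQ67_00632 and those of Y-12729 and Y-48124 20.1 to 66.9, so these overlapped, while at 48 h both sets lay at 4.80 to 11.6 CPM apart from 43.7 in Y-48124 D. GQ67_02813, GQ67_01434, GQ67_00262, GQ67_00263, GQ67_04014 and GQ67_04719 were the others, and GQ67_00263 had the most negative difference, -2.11 (SE 0.504). By the values of the rule GQ67_00262 fell by 1.71 to 2.28 in the strains of Cluster 2 and by 1.18 as a mean over strains. Cluster 2 thus helped it onto the list, and its call partly restates the choice. The median over the 45 members was -0.13, against 0.02 over all genes. Cluster 2 was set up by the study from these libraries, so its differences are not independent evidence. Since its libraries of 1 letter deviated together, the fit treats as separate libraries that were not, and its p-values may be too small. Without its 8 A libraries at 24 h and in methanol, 10 members were called in the fall and 15 in the recovery.

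For the recovery of Cluster 2, 10 members were called higher (8.02% of all genes) and 2 lower (10.3% of all genes), with a median of 0.51 over the members and -0.09 over all genes. GQ67_04719 led with 2.79 (SE 0.32, edgeR adjusted p = 9.06e-11). Its methanol values of 438 to 926 CPM in Cluster 2 did not overlap with the 73.1 to 317 CPM of the reference strains. The count of 12 was 17 without Y-12729 methanol B, 16 without Y-48124 methanol C and 18 without the 5 libraries that stood apart. The 2 lower members were GQ67_04531, at -2.28 (SE 0.47, 6.88e-05), and GQ67_04702, at -1.61 (SE 0.54, 0.0129). In methanol GQ67_04531 held 14.4 to 31.1 CPM in Cluster 2, overlapping with its 48 h values of 17.5 to 26.9, while Y-12729 A and C and Y-48124 A and B held 166 to 252 CPM and Y-12729 B and Y-48124 C held 23.1 and 18.5.

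In Y-17741, 4 members fell less than in the reference strains (4.17% of all genes): GQ67_01122, GQ67_01987, GQ67_04702 and GQ67_03282. GQ67_01122 held 40.5, 43.8 and 44.6 CPM at 24 h and 43.7 and 36.2 at 48 h in Y-17741, with overlap, against 31.4 to 127 and 11.9 to 26.2 CPM in the reference strains, with none (difference 1.44, SE 0.35, edgeR adjusted p = 0.00374). The count was 1 without the 48 h library B of Y-17741, 2 without D, 8 without Y-48124 D at 48 h and 11 without the 5 libraries that stood apart.

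The recovery of Y-17741 went both ways, with 5 members higher (11.5% of all genes) and 9 lower (14.2%). GQ67_04702 was the clearest, at -4.39 (SE 0.85, edgeR adjusted p = 3.04e-05): Y-17741 held 6.68, 10.1 and 9.96 CPM at 24 h, 16.3 and 16.2 at 48 h and 4.9996, 8.23, 5.31 and 7.13 in methanol. Its 48 h libraries were thus the highest of the strain, the reverse of the pattern. The reference strains held 18.1 to 128 CPM in methanol, with no overlap. GQ67_02041, among the members called higher, rose more than in the reference strains, by 2.79 (SE 0.66), on the uneven methanol values given above. By the values of the rule its rise was 3.04 in Y-17741 and 1.14 as a mean over strains. Y-17741 thus helped it onto the list, and its difference is given without a p-value. The same holds for other called members, GQ67_00262, GQ67_00939, GQ67_01385 and GQ67_02813 among them, in the strains named with them. Without 48 h library B of Y-17741, 6 members were called in place of 14, and 18 were called without Y-48124 methanol C.

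Y-11430 had 12 members that fell less (5.58% of all genes) and 2 that fell further (9.67%), and the median over the members was 0.61, against 0.02 over all genes. GQ67_01105 had the smallest adjusted p, with a difference of 1.25 (SE 0.27, edgeR adjusted p = 0.000326). It held 101.8 to 134 CPM in Y-11430 at 24 h and 102.2, 88.3 and 134 at 48 h, which overlap, while the reference strains held 232 to 333 and 55.3 to 183 CPM, which do not. GQ67_02858 and GQ67_01385 fell further, with differences of -1.13 (SE 0.32) and -1.56 (SE 0.49), and both were high in Y-11430 at 24 h, at 247 to 357 and 199.9 to 241 CPM. By the values of the rule GQ67_01385 fell by 2.18 in Y-11430 and by 1.06 as a mean over strains. Y-11430 thus helped it onto the list. Without 48 h library D of Y-11430, which held 425037 counts, 9 members were called in place of 14, and 18 were called without Y-48124 48 h D.

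For the recovery of Y-11430, 0 members were called in edgeR, and 2 of the 5087 tested genes were called higher (0.0393%) and 0 lower (0.0%). At an unadjusted p under 0.05, 2 members differed, and DESeq2 called 0. The median over the members was 0.14, with single differences from -1.56 to 0.97. In Y-11430 the methanol values of GQ67_01105 were 260.0 to 326 CPM, above all its 24 h and 48 h libraries and within the 133 to 404 CPM that the other strains held at 24 h.

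GS115 had 7 members that fell less than in the reference strains (4.32% of all genes), led by GQ67_04520, at 1.02 (SE 0.25, edgeR adjusted p = 0.00344). GQ67_04520 held 94.9, 101.6 and 106 CPM at 24 h and 67.3 and 82.2 at 48 h in GS115, and 96.7 to 190.1 and 23.7 to 66.6 in the reference strains. GQ67_03110, the member that did not drop in GS115, had the largest difference, 3.48 (SE 1.10, adjusted p = 0.0301). In GS115 4 members recovered less (5.25% of all genes): GQ67_00263, with -2.96 (SE 0.69, 0.00167), GQ67_00970, GQ67_01122 and GQ67_02558. GQ67_00970 held 67.5 and 98.4 CPM at 48 h and 20.1, 24.6 and 41.7 in methanol in GS115, where it fell rather than rose (difference -3.80, SE 0.90, 0.00197).

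The count of 7 for GS115 rests on few libraries. It was 1 without its 24 h library A, 0 without B, 1 without its 48 h library B and 0 without C. It was 4 without Y-12729 48 h B or D, Y-48124 24 h B or Y-48124 48 h B, and 3 without Y-48124 48 h A.

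In X-33, 2 members fell further than in the reference strains (1.0% of all genes): GQ67_02813, at -1.53 (SE 0.38), and GQ67_00939, at -1.60 (SE 0.45). By the values of the rule their mean falls over strains were 1.04 and 1.11, and GQ67_00939 fell by 2.40 in X-33. X-33 thus helped both onto the list, and their differences are given without p-values. GQ67_02813 held 64.5, 46.3 and 65.6 CPM at 24 h and 13.9, 14.0 and 14.8 at 48 h in X-33, against 25.1 to 42.4 and 18.0 to 49.1 CPM in the reference strains. The count was 0 or 1 without any 1 of 12 libraries: X-33 24 h A, B or C and 48 h A or B, Y-12729 24 h A, B or C and 48 h A or D, Y-48124 24 h A and 48 h D. For the recovery, 8 members were called higher (7.16% of all genes) and 1 lower (8.75%), the lower one GQ67_04531. In methanol, X-33 A and B differed from the other X-33 libraries by a mean absolute 0.77 and 0.74 log2 units over all genes and from their nearest strains, Y-7556 and YB-4290, by 0.51 and 0.40, and C held 70901 counts. The count of 9 was 6 without A, 6 without B and 11 without C.

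GQ67_00939 led the recovery of X-33 with 2.81 (SE 0.49). By the values of the rule its rise was 2.16 in X-33 and 1.00 as a mean over strains. X-33 thus helped it onto the list here too, and no p-value is given. It held 1.65, 1.33 and 4.37 CPM at 48 h and 9.47, 17.8 and 14.1 in methanol in X-33, while Y-12729 and Y-48124 held 2.54 to 7.66 and 3.07 to 8.02 CPM, with overlap. The value of 14.1 in X-33 C is a single count. The number of members called in the recovery of X-33 was 15 without Y-12729 methanol B and 19 without the 5 libraries that stood apart.

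YB-4290 and Y-7556 have identical genomes by the study's account and gave a comparison with no known genetic difference. In edgeR, 0 members and 0 genes (0.0%) were called for the fall or the recovery, and 0 members had an unadjusted p under 0.05. DESeq2 called 0 members. Differences over the members ran from -0.57 to 1.11 for the fall and from -0.49 to 0.77 for the recovery. GQ67_03110 held 504, 617 and 739.8 CPM at 24 h, 56.8 and 57.2 at 48 h and 929, 1313 and 1508 in methanol in Y-7556, and 433, 951 and 715, then 63.2, 59.8 and 80.1, then 990.3, 1292 and 1659 in YB-4290, so the strains overlapped at 24 h glycerol and in methanol, while both 48 h libraries of Y-7556 were below the 3 of YB-4290.

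The members nearest to the edge of the list were GQ67_02858, GQ67_01123 and GQ67_00939, each 1.00 higher in methanol than at 48 h glycerol and 1.11, 1.01 and 1.11 higher at 24 h. The nearest genes outside were GQ67_05084, GQ67_04730 and GQ67_05229, 0.99, 0.98 and 0.98 higher in methanol.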

How the data were processed

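RNA from bulk cultures was sequenced as 40-nt pairs. The authors aligned reads with STAR 2.5.3a and quantified them with RSEM 1.3.0 on gene models of their Y-11430 assembly, and deposited expected counts, of which 100% were whole numbers, and log2(TPM + 1) values, which the authors' pipeline normalized within each library. Groups came from the sample labels. CPM was computed from the expected counts over the 5116 listed genes. Tests used edgeR 4.0.16 in R 4.3.3 (quasi-likelihood, TMM scaling, low-count filter, robust), with 1 fit of the 102 libraries and a mean for each strain and culture. Adjusted p-values are Benjamini-Hochberg values over 5087 genes. Alternatives used DESeq2 1.42.0, RLE size factors, no low-count filter, no fold minimum, a replicate block, other rule settings, and libraries under 1000000 counts left out. In the tests, 88 of the 102 libraries were also left out in turn. The 24 h and methanol libraries of Y-11430 and the 48 h library of Y-48123 were not among them. Leaving out 5 libraries that stood apart, or the 8 A libraries of Cluster 2 at 24 h and in methanol, was chosen after seeing the data.

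The members and lists were chosen with earlier results of these data known. Genes named in the text are those with the largest dip, the highest TPM at 24 h glycerol, the smallest adjusted p in each contrast those nearest to the thresholds, and any member that the study's supplement lists with a symbol. Others, GQ67_00262, GQ67_00970 and GQ67_04531 among them, were chosen after their values were seen. Floors of 3 counts cover counting error only.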

Additional observations from a re-analysis of the deposited data

Results flagged for a closer look

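Single libraries were screened in the 4 groups of strain and culture with 4 or more libraries, while 29 groups of 3 or fewer were not. Each named member and the median over the members gave 76 sets of values. Of these, 5 held a library far from the rest, and chance alone would mark about 1 in 20. The gap to the nearest library, as a share of the group's range, was 0.681 for GQ67_04719 in Y-11430 methanol F (6.05 against 6.59 to 6.85 in log2(CPM + 1)). In Y-17741 methanol C it was 0.888 for GQ67_03110 (9.49 against 10.79 to 10.95) and 0.916 for GQ67_00263 (4.67 against 6.26 to 6.41), both low. In Y-48123 methanol C it was 0.843 for GQ67_04719 (8.05 against 6.63 to 6.85) and 0.851 for GQ67_00263 (8.86 against 6.48 to 6.83), both high.

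The effect of the cultures differed from that in the reference strains, by a test of the difference in edgeR, for several members in most strains. In Cluster 2 this held for 7 members in the fall (15.6% of the members and 12.2% of all genes) and 12 in the recovery (26.7% and 18.3%). In Y-17741 it held for 4 (8.89% and 8.53%) and 14 (31.1% and 25.7%), in GS115 for 7 (15.6% and 8.20%) and 4 (8.89% and 10.9%), and in X-33 for 2 (4.44% and 1.40%) and 9 (20% and 15.9%). In Y-11430 it held for 14 members in the fall (31.1% and 15.3%). The shares of members and of all genes were close in several of these, and the difference between the shares was not tested. Some of the called members, as given above, were helped onto the list by the same strains.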

How the results depend on the processing

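The list moved with its thresholds: 95 genes met looser thresholds (0.8, 0.8 and 1.2), 16 met stricter ones (1.2, 1.2 and 0.8) and 18 met the rule with a pseudocount of 5 CPM, and 41 to 50 met it with 1 library left out. With TMM scaling 47 genes met it, 31 of them members. Without a fold minimum, 19 members were called in the recovery of Cluster 2. In the fall of Y-17741, 2 were called without libraries under 1000000 counts and 11 without the 5 libraries that stood apart. In the fall of GS115, 4 were called with RLE size factors, 4 by DESeq2 and 1 without libraries under 1000000 counts. In the fall of X-33, 1 was called with RLE size factors, 4 by DESeq2, 1 without libraries under 1000000 counts and 6 without the 5 that stood apart, where the recovery had 19. The cause was not tested.

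With 1 library left out, the count was 30 for the fall of Y-48123 (30 to 30) and 36 to 39 for its rise. The lone 48 h library of Y-48123 was kept throughout, as were the 24 h and methanol libraries of Y-11430. For the fall it was 5 to 9 in Cluster 2, 1 to 8 in Y-17741, 9 to 18 in Y-11430, 0 to 9 in GS115 and 0 to 2 in X-33. For the recovery it was 9 to 17, 6 to 18, 0 to 0, 3 to 6 and 6 to 15 in the same order. Of the other alternatives, 108 counts stayed within 1.5 times the reported count and 15 did not.

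Libraries of 1 letter in different cultures of a strain, which the block would pair, had a correlation over 0.1 in 12 of 83 pairs, with a median of -0.02, so letters were not taken as pairs across cultures. Within a culture they did deviate together across the strains of Cluster 2. With the replicate block, 0 members were called in the fall of X-33, and GQ67_02813 there (-1.34) lost its call. The fall of GS115 for GQ67_04520 missed the fold minimum at 0.96 with RLE size factors, 0.99 without the filter, 0.94 by DESeq2, 0.82 without libraries under 1000000 counts and 0.98 without the 8 A libraries of Cluster 2, where 49 genes met the rule, 43 of them members.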

Other observations

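In methanol several members split within a strain along the same libraries. GQ67_00970, chosen after its values were seen, held 312 CPM in Y-12729 B against 28.4 and 14.2 in A and C, 623 in Y-48123 C against 34.1, 91.2 and 78.2, and 699 in Y-48124 C against 46.0 and 139.6. GQ67_04531 went the opposite way, with 23.1 in Y-12729 B against 252 and 249, 25.6 in Y-48123 C against 272, 219.7 and 244, and 18.5 in Y-48124 C against 230.3 and 166. In X-33 it held 23.2, 15.4 and 268. Over all genes, Y-12729 B differed from the other methanol libraries of its strain by a mean absolute 0.82 log2 units and from the mean of Cluster 2 by 0.48.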
